A study of Homo sapiens with 6 samples.

Results

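Genes of the orphan and adhesion G protein-coupled receptors were examined in SW480 cells, a human colorectal adenocarcinoma line, with and without introduced FOXC2. They were taken by symbol, as GPR followed by digits only, GPRC followed by a digit, or ADGR. By this rule 49 genes, read by 50 of the 33497 array features, were measured among 12562 named genes, and a gene with several features was read by the feature with the highest mean. The RefSeq table used here holds 104 protein-coding genes with such symbols, 28 of them adhesion receptors, of which 12 were measured. The remaining genes are not analysed here.

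The tested cells carried a retroviral FOXC2 construct, FOXC2 being a forkhead transcription factor, and the control cells carried the empty pBabe vector. Each group had 3 single-colour Cy3 arrays, from 3 separate cultures of this 1 cell line. Both groups grew in medium with 10% serum, penicillin and streptomycin. Puromycin, given at 0.5 μg/mL over 3 to 5 days, selected the infected cells, and RNA was taken at 90% confluence. Since no label says whether the cultures were infected separately, p-values measure the spread between cultures. FOXC2 had intensities of 8777, 8262 and 8344 in FOXC2 cultures, against 2319, 2323 and 2818 in pBabe cultures, so every array fitted its label. Array medians lay between 895 and 913, and correlations of log2 values across features were 0.987 to 0.990 within groups and 0.958 to 0.964 between them. Of the colon epithelial markers 7 of 9 were measured. KRT8, a simple-epithelium keratin, had at least 29895 in FOXC2 cultures and at least 32906 in pBabe cultures, while the intestinal cadherin CDH17 had 72.8 to 118 in FOXC2 cultures and 54.6 to 325 in pBabe cultures, the lowest value of the table being 50. Neither passed, but 5 of the 7 markers did, as given with the other cell type markers at the end.

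G protein-coupled receptors span the membrane repeatedly and pass signals to heterotrimeric G proteins inside the cell. Orphan receptors are those whose natural ligand was unknown when they were named, and several now have proposed ligands among lipids, metabolites and ions. Adhesion receptors have a long extracellular part that can be cleaved from the membrane part and that binds matrix or surface proteins of neighbouring cells. In the gut epithelium such receptors are known to sense luminal metabolites, zinc and lipids.

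Of the 49 receptors, 12 were higher and 5 were lower in FOXC2 than in pBabe cells at an adjusted p under 0.05 by limma with Benjamini-Hochberg adjustment over all features. GPR35, a receptor of gut epithelium and immune cells that responds to kynurenic acid, rose 4.22-fold, and the zinc receptor GPR39 rose 2.14-fold. ADGRG2, an adhesion receptor known from the epididymis, fell to 22.3% of its pBabe level, and the lysophosphatidylinositol receptor GPR55 fell to 37.7%. Among all named genes, 14.1% passed as higher and 14.3% as lower, 28.4% in all, against 34.7% of the receptors. The median log2 fold change was 0.21 over the receptors and 0.03 over all named genes. The receptors were dimmer, with a median mean log2 intensity of 8.42 against 10.0 over all named genes. Their median log2 fold change was 0.07 for the 15 at or above the median of all values and 0.33 for the 34 below it. No median over named genes of like signal was taken, so these values do not set the receptors apart from other dim genes. A change of at least 2-fold that passed was found for 3 higher and 2 lower receptors, and for 7.08% of named genes. These are bulk cultures, in which fewer cells with a transcript and less of it per cell cannot be told apart.

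**Figure D1:**
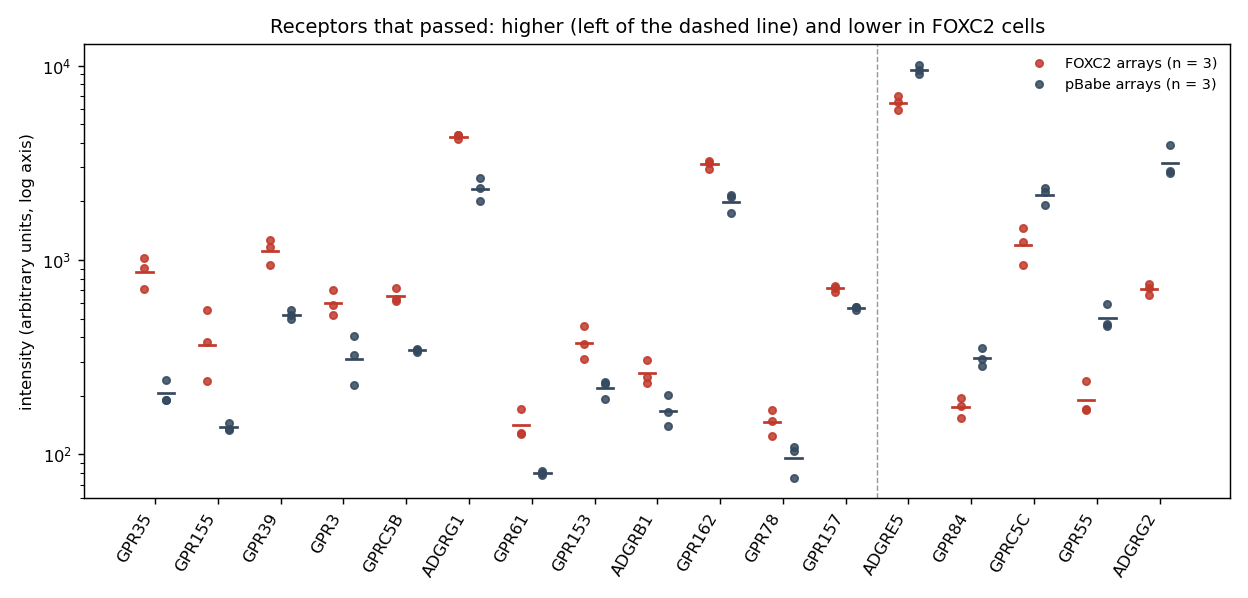
Intensity (log axis) of the 17 receptors that passed, in the 3 FOXC2 arrays (red, left of each pair) and the 3 pBabe arrays (dark, right of each pair), with lines at the geometric means. The arrays of the groups do not overlap for any of the 17, which were chosen by a test on these same arrays. Among all named genes 48.4% do not overlap. GPR155 has the widest spread of the FOXC2 arrays among the 17.

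GPR35 had intensities of 707, 1018 and 913 in FOXC2 cultures, against 191, 240.1 and 191 in pBabe cultures. Every FOXC2 array was far above every pBabe array. The log2 fold change was 2.08 ± 0.17 (SE), a 4.22-fold rise (95% confidence interval 3.21 to 5.54, limma adjusted p 3.34e-04). GPR39 had 943, 1264 and 1169 in FOXC2 cultures, against 553, 495 and 521 in pBabe cultures, with a log2 fold change of 1.10 ± 0.13 (SE, limma adjusted p 0.00158). Its groups were also separate, with the pBabe arrays close together. GPR39 overlaps LYPD1 in the RefSeq annotation, and LYPD1 rose by 1.26 on the log2 scale.

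ADGRG2 had 749, 659 and 715 in FOXC2 cultures, against 2811, 3903 and 2884 in pBabe cultures. The FOXC2 arrays were all low and close together, and the pBabe arrays were all high. Its log2 fold change was -2.16 ± 0.15 (SE, limma adjusted p 1.78e-04). GPR55 had 168, 237 and 171 in FOXC2 cultures, against 460.1, 592 and 468 in pBabe cultures, a log2 fold change of -1.41 ± 0.17 (SE, limma adjusted p 0.00181). The groups did not overlap for GPR55 either.

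Promoter sequence was available for 33 of the 49 receptor genes, in 46 windows of 300 bases from RefSeq (GRCh38.p14), each running from 250 bases before an annotated start to 50 after it. The 250 bases before the start are shown for the receptors with the largest rise and the largest fall, for ADGRG1, whose window holds a pair of AP-1 motifs, and for GPR3, the 1 receptor with a cAMP response element in its window. Sequences run 5′ to 3′ on the gene's strand. Capitals mark the AP-1 motif TGANTCA, the cAMP response element TGACGTCA and the GC box GGGCGG on either strand. GPR35 and ADGRG1 have further annotated starts that are not shown.
GPR35, chr2:240625230-240625479, plus strand: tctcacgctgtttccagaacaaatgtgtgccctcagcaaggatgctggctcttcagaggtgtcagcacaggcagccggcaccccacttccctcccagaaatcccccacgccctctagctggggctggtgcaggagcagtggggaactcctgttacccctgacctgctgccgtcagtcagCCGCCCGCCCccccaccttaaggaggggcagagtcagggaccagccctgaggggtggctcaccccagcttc
ADGRG2, chrX:19122469-19122718, minus strand: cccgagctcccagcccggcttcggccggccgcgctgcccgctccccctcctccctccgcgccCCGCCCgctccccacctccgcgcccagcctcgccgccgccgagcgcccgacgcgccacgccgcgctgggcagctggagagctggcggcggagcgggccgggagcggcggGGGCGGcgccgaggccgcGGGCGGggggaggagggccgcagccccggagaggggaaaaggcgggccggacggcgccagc
ADGRG1, chr16:57628380-57628629, plus strand: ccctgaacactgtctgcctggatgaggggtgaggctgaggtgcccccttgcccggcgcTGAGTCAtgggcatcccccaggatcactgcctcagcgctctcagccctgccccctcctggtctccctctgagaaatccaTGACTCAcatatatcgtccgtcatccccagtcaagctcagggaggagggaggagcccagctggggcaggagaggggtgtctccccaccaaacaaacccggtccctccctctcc
GPR3, chr1:27392372-27392621, plus strand: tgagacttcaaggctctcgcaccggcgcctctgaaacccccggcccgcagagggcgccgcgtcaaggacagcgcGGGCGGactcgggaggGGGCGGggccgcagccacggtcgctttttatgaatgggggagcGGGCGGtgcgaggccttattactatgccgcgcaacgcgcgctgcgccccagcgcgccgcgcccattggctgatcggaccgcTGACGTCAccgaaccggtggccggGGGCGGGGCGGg
The sequences above and the 50 bases after each start hold no forkhead core motif TAAACA on either strand. Over all receptor windows, 3 of 46 (6.52%) held TAAACA, those of GPR146, GPR161 and GPR18, and all 3 genes did not pass. The share was 12.3% of 35116 windows in the RefSeq table. The longer form GTAAACA, which contains TAAACA, was in 2 of 46 (4.35%) receptor windows and in 3.42% of all windows. TGANTCA was in 5 of 46 (10.9%) and in 7.71% of all, TGACGTCA in 1 of 46 (2.17%) and in 1.85% of all, and GGGCGG in 26 of 46 (56.5%) and in 45% of all. In GPR3 an AP-1 motif also starts at base 2 after the start. These matches describe the letters of the windows, several of which belong to the same gene.

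Among the 12 adhesion receptors 2 rose, 2 fell and 8 did not pass. That is 33.3% passing, close to the 28.4% of all named genes. ADGRG1, also known as GPR56, binds collagen III and transglutaminase 2 and takes part in cortical development. It had 4180.1, 4381 and 4380.4 in FOXC2 cultures, against 2019.9, 2338 and 2633 in pBabe cultures, a 1.86-fold rise (95% confidence interval 1.54 to 2.25, limma adjusted p 0.00229). The FOXC2 cultures were nearly alike and all above the pBabe cultures. ADGRB1, a receptor for phosphatidylserine on dying cells also known as BAI1, had 234, 249 and 307 in FOXC2 cultures, against 140.4, 202 and 166 in pBabe cultures. The groups were separate and the limma adjusted p was 0.0312, but it was 0.0674 without FOXC2 replicate 2, 0.0915 without FOXC2 replicate 3, 0.0786 without pBabe replicate 1 and 0.0798 without pBabe replicate 3.

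Besides ADGRG2, ADGRE5 fell. ADGRE5 is CD97, a receptor of leukocytes and carcinoma cells that binds CD55. It had 5901, 6986 and 6477 in FOXC2 cultures, against 9466, 9025 and 10108 in pBabe cultures, 67.6% of the pBabe level (log2 fold change -0.56 ± 0.10 SE, limma adjusted p 0.00817). All FOXC2 arrays were below all pBabe arrays. ADGRG6, which is needed for Schwann cell myelination in zebrafish and mouse, was dim, with 82, 91.6 and 114 in FOXC2 cultures and 128, 132 and 192 in pBabe cultures. Its groups did not overlap, but its limma adjusted p was 0.0507. It was 0.0367 with quantile normalization, 0.0209 with a replicate block and 0.0494 with an offset of 16 before the log. ADGRG6 did not pass with median centring (0.0559), with a trended robust prior (0.0873), with the mean over features (0.0511) or with any 1 array left out (0.0513 to 0.132).

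The other adhesion receptors differed less. ADGRL1, a latrophilin that binds teneurins, had 2367, 2272 and 2372 in FOXC2 cultures and 2219.7, 2059 and 2394 in pBabe cultures. The groups overlapped, and the 95% confidence interval of the fold ran from 0.905 to 1.22. ADGRA3, at 3842, 3935 and 3664 in FOXC2 cultures and 3392, 3292 and 3873 in pBabe cultures, had an interval of 0.925 to 1.28. ADGRE2, a myeloid receptor closely similar to ADGRE5 in sequence, had 3177, 2590.1 and 2685 in FOXC2 cultures and 2334, 2740.3 and 2789 in pBabe cultures. Whether the probes tell ADGRE2 and ADGRE5 apart was not tested, and the ADGRE2 feature did not pass. The myeloid receptors ADGRE1 and ADGRE3, and ADGRG3 and ADGRA2, were not called, with log2 fold changes of 0.52, -0.10, 0.07 and -0.28. ADGRE1 passed without FOXC2 replicate 1 (limma adjusted p 0.0358).

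Class C holds the GPRC5 receptors, known as genes induced by retinoic acid. GPRC5B rose and GPRC5C fell. GPRC5B had 629, 717 and 614 in FOXC2 cultures, against 344, 350.2 and 334 in pBabe cultures, a 1.90-fold rise (95% confidence interval 1.63 to 2.22, limma adjusted p 9.04e-04). GPRC5C had 1231, 1457 and 946 in FOXC2 cultures, against 2243, 1917 and 2340.1 in pBabe cultures, 55.2% of the pBabe level (limma adjusted p 0.0129). For both genes the groups were separate, in opposite directions. GPRC5A, which suppresses lung tumours in mice, had 4269.5, 4803 and 4942 in FOXC2 cultures and 5782, 5887 and 4681 in pBabe cultures. These overlapped, and the log2 fold change was -0.22 ± 0.12 (SE, limma adjusted p 0.231). GPRC5D was dim and not called, at -0.31 ± 0.26 (SE).

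Receptors for lipids, metabolites or ions numbered 10, of which GPR35 and GPR39 rose, GPR55 and GPR84 fell and 6 did not pass. That is 40% passing, against 28.4% of all named genes. GPR84, a receptor of myeloid cells for medium-chain fatty acids, had 178, 195 and 154 in FOXC2 cultures, against 309.8, 284 and 351 in pBabe cultures. It was at 55.7% of its pBabe level with no overlap (log2 fold change -0.84 ± 0.13 SE, limma adjusted p 0.00426). GPR84 overlaps COPZ1 in the annotation, which fell by 0.61 on the log2 scale. GPR119, which promotes release of gut incretin hormones, had 145, 176 and 153 in FOXC2 cultures and 114, 133 and 88.5 in pBabe cultures. Its groups did not overlap, while its limma adjusted p was 0.0601, and 0.0388 without pBabe replicate 2. The oxysterol receptor GPR183 and GPR18, GPR17, GPR32 and GPR143 had log2 fold changes of 0.19, 0.20, 0.38, 0.34 and -0.23 and overlapping groups. GPR132, the 1 proton-sensing receptor measured, had 207, 194 and 173 in FOXC2 cultures and 157, 185 and 156 in pBabe cultures (limma adjusted p 0.220).

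**Figure D2:**
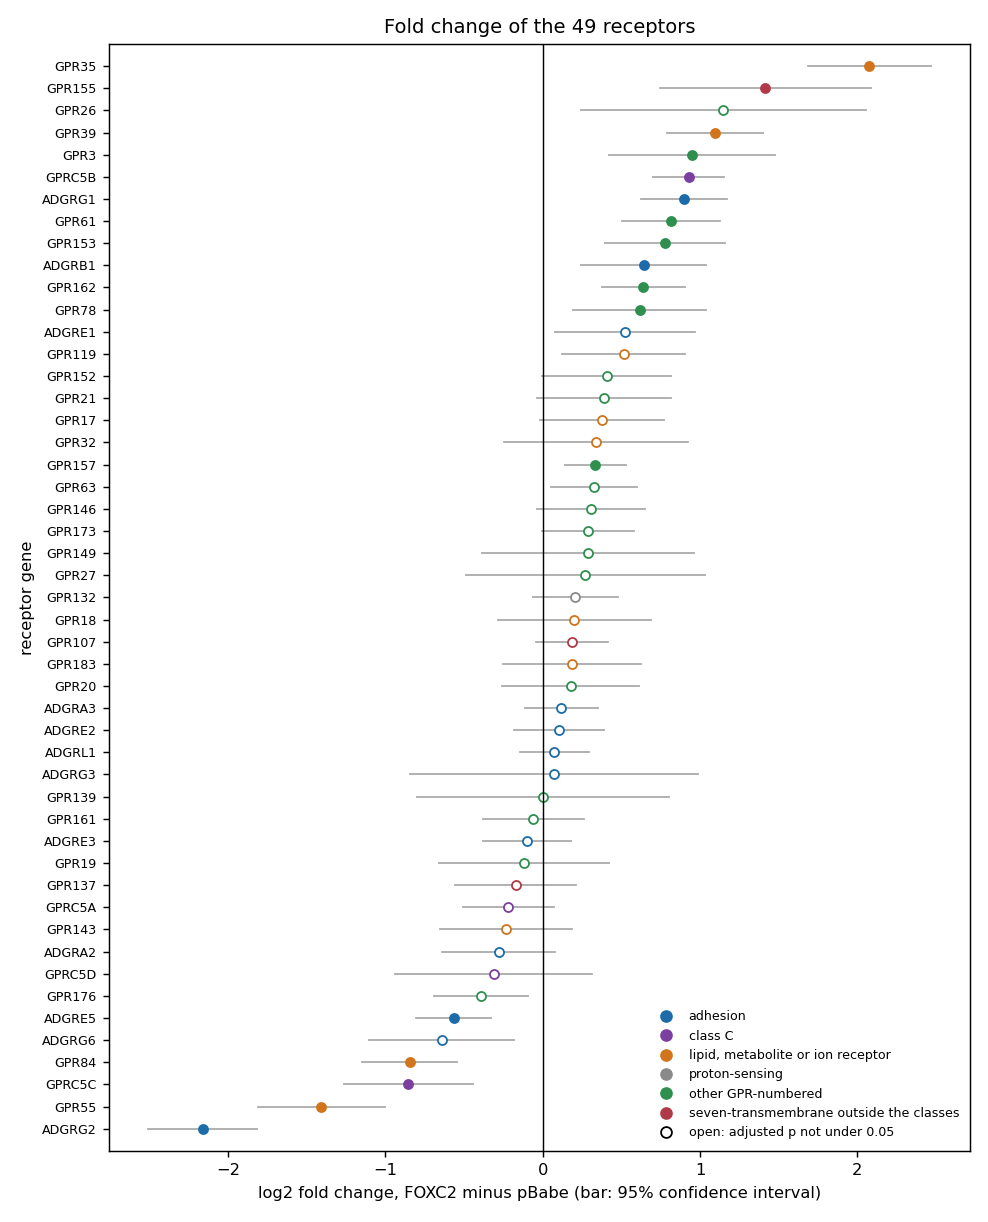
Log2 fold change of FOXC2 minus pBabe for the 49 receptors, with 95% confidence intervals and colours by receptor group. Filled points passed, and values run from 2.08 for GPR35 to -2.16 for ADGRG2.

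Of the 19 other receptors with GPR numbers, most of them orphans, 6 rose, 0 fell by limma and 13 did not pass. That is 31.6% passing, close to the 28.4% of all named genes, of which 14.1% were higher and 14.3% lower. At an unadjusted p under 0.05, 1 of the 19, GPR176, was lower. GPR3 is active without ligand, raises cAMP and holds mouse oocytes in meiotic arrest. It had 584, 522 and 703 in FOXC2 cultures, against 405, 324 and 228 in pBabe cultures, a 1.93-fold rise (95% confidence interval 1.34 to 2.78). The groups were separate with a wide pBabe spread. Its limma adjusted p was 0.0222, but 0.0552 without FOXC2 replicate 1, 0.0712 without FOXC2 replicate 3 and 0.0549 without pBabe replicate 2.

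The paralogous orphans GPR162 and GPR153 both rose. GPR162 had 3145, 2946 and 3232 in FOXC2 cultures, against 1746, 2101 and 2161 in pBabe cultures, a 1.56-fold rise (limma adjusted p 0.00740). GPR162 was the 1 receptor with a further feature, which rose 1.72-fold (limma adjusted p 0.0106). GPR153 had 368, 311 and 456 in FOXC2 cultures, against 193, 230.2 and 235 in pBabe cultures, a 1.71-fold rise (limma adjusted p 0.0142). Neither gene had overlapping groups.

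GPR61, an orphan of the brain that signals without ligand, had 128, 171 and 129 in FOXC2 cultures, against 78.2, 80.7 and 82.2 in pBabe cultures (1.76-fold, limma adjusted p 0.00564). GPR78 had 124, 149 and 168 in FOXC2 cultures, against 109, 104 and 76.1 in pBabe cultures (1.53-fold, limma adjusted p 0.0434). Both were dim, at percentiles 6.1 and 8.1 of all features by mean. The limma adjusted p of GPR78 was 0.106, 0.126, 0.0539, 0.0698 and 0.0887 without FOXC2 replicate 2, FOXC2 replicate 3, pBabe replicate 1, pBabe replicate 2 and pBabe replicate 3. GPR26, a near relative of GPR78 named here after its values were seen, had 221, 125 and 291 in FOXC2 cultures and 87.6, 136 and 62.2 in pBabe cultures. Its groups overlapped at 2.22-fold (limma adjusted p 0.0664), and it passed without FOXC2 replicate 2 (0.0311) or pBabe replicate 2 (0.0467).

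GPR157, which in mouse lies in the cilia of radial glia, changed least of the 17. It had 717, 685 and 739 in FOXC2 cultures, against 572, 554 and 572 in pBabe cultures, a 1.26-fold rise (limma adjusted p 0.0251). Its arrays were tight in both groups, yet the limma adjusted p was 0.0534 to 0.0885 with any 1 array left out. GPR161, a ciliary receptor that restrains Hedgehog signalling, had 334, 419 and 467 in FOXC2 cultures and 429, 403 and 427 in pBabe cultures, with overlap (limma adjusted p 0.775). GPR176 was lower at -0.39 on the log2 scale without overlap (limma adjusted p 0.0605) and passed without pBabe replicate 1 (0.0434). GPR63, at 0.33 without overlap, passed without FOXC2 replicate 1 (0.0490). The remaining 9 orphans that did not pass had log2 fold changes of -0.12 to 0.41.

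Membrane-spanning proteins with GPR symbols that lie outside the receptor classes were GPR155, GPR107 and GPR137. GPR155, a lysosomal cholesterol sensor, had 553, 378 and 237 in FOXC2 cultures, against 134, 135 and 144 in pBabe cultures. The FOXC2 cultures were spread widely, but all lay above the tight pBabe cultures. The rise was 2.67-fold (95% confidence interval 1.67 to 4.25, limma adjusted p 0.0126). GPR107, a Golgi protein, had 4900.4, 4303 and 4295 in FOXC2 cultures and 3958, 4142 and 3744 in pBabe cultures, which did not overlap at a limma adjusted p of 0.196. GPR137 overlapped between groups, at -0.17.

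Across the 49, groups did not overlap for 16 receptors with FOXC2 above and 7 with pBabe above, against 24.9% and 23.5% of named genes, 48.4% in all. Array signal and calls were set side by side. Of 15 receptors at or above the median of all values, 2 rose and 3 fell. Of the 34 below it, 10 rose and 2 fell. The share of named genes called was 28.3% above and 28.6% below that median. These shares hold both directions together. Shares by direction on either side of the median were not taken, so the lean of dim genes in general is not known. Of the 32 receptors that did not pass, 6 had an unadjusted p under 0.05, and their log2 fold changes ran from -0.64 to 1.15.

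**Figure D3:**
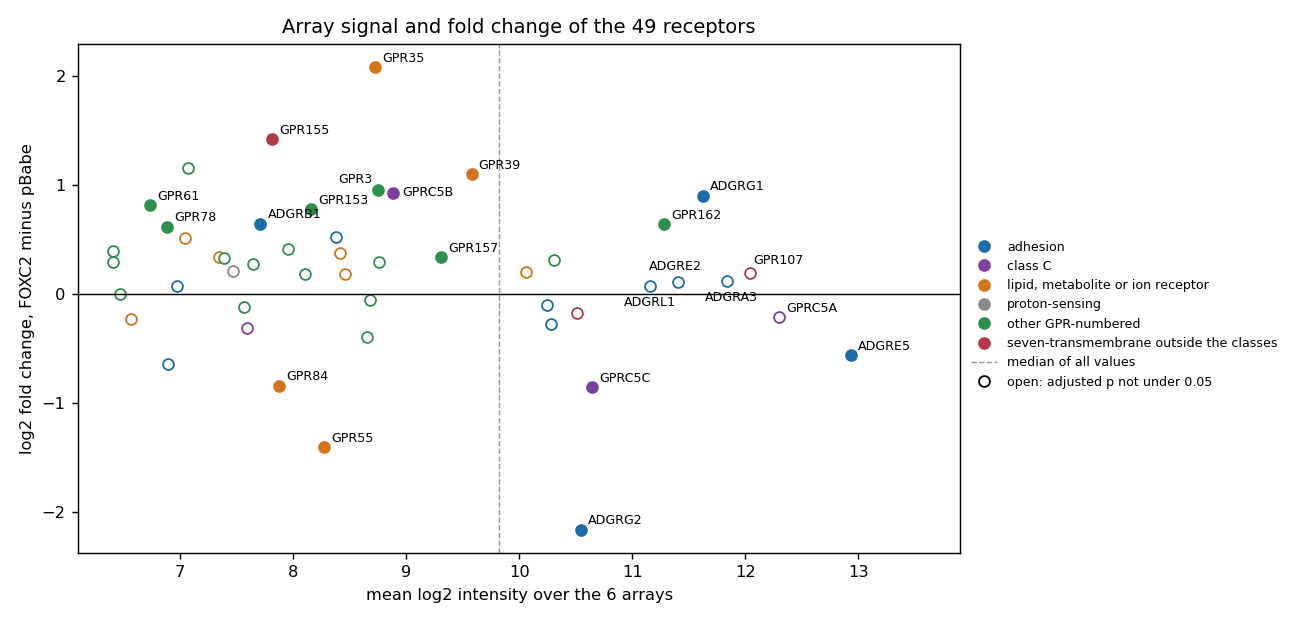
Mean log2 intensity over the 6 arrays (x) against log2 fold change of FOXC2 minus pBabe (y) for the 49 receptors, filled where passed. Of the receptors to the right of the dashed median 2 rose and 3 fell, and of those to the left 10 rose and 2 fell. Of named genes 28.3% at or above and 28.6% below that median passed, both directions together. Signals of different features do not compare RNA amounts between genes.

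By annotation, 14 of the 49 receptors overlap another protein-coding gene, 3 of the 17 called ones among them. Those 3 are GPR39, GPR84 and GPRC5B, whose overlapping gene IQCK rose by 0.68. In each case the overlapping gene passed in the same direction as the receptor. Whether the features tell the overlapping transcripts apart was not tested. Taking the nearest measured gene on either side of the 17, 12 of 34 passed in the same direction, 2 in the opposite direction and 20 did not pass. The 12 include LYPD1, COPZ1 and IQCK, the 3 overlapping genes already counted above. Among all named genes 14.1% passed as higher and 14.3% as lower. Whether neighbours of the receptors differ from other genes in this was not tested.

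Signalling genes around the receptors were described by lists, whose counts stand against 14.1% of named genes passing as higher and 14.3% as lower, 28.4% in all. The share that passed was 33.3% of the alpha subunits, 53.8% of the beta and gamma subunits, 38.5% of the kinases and arrestins, 44.4% of the RGS genes, 23.8% of the cAMP genes and 33.3% of the adhesion receptor partners, in lists of 9 to 21 measured genes. Of 12 measured G protein alpha subunits 3 rose and 1 fell, with GNAZ at 0.51 and GNAQ at 0.44 on the log2 scale. The Gs subunit GNAS, which stimulates adenylyl cyclase, had 25934 to 29290.0 in FOXC2 cultures and 25184 to 29397 in pBabe cultures, which overlapped. Of 13 beta and gamma subunits 5 rose and 2 fell. The gamma subunit GNG4 had 6612, 5477 and 5588 in FOXC2 cultures, against 1709, 1866 and 1789 in pBabe cultures, a 3.29-fold rise (95% confidence interval 2.76 to 3.91, limma adjusted p 1.24e-04). Its groups were separate by a wide margin. GNG12 rose by 0.43 and GNB3 fell by 0.43. The call of GNG12 was lost without FOXC2 replicate 1 (limma adjusted p 0.0560), FOXC2 replicate 2 (0.0556), pBabe replicate 1 (0.0515) or pBabe replicate 2 (0.0562). That of GNB3 was lost without any 1 array other than FOXC2 replicate 1 (0.0525 to 0.137). GNAQ lost its call without FOXC2 replicate 3 (0.0538). Among the 13 receptor kinases and arrestin-family genes, which switch receptors off and sort them, 5 rose and 0 fell by limma, and 0 were lower at an unadjusted p under 0.05. GRK2 rose by 0.72, ARRDC1 by 0.54 and GRK6 by 0.36. GRK2 and GRK6 lost the call in most fits with 1 array left out, GRK2 without FOXC2 replicate 1 (limma adjusted p 0.0574), FOXC2 replicate 3 (0.0624), pBabe replicate 1 (0.0586) or pBabe replicate 3 (0.0587). GRK6 did so without FOXC2 replicate 1 (0.0578), FOXC2 replicate 2 (0.0825), FOXC2 replicate 3 (0.0890), pBabe replicate 1 (0.0718) or pBabe replicate 3 (0.0575).

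Of 9 RGS genes, whose products shorten G protein signals, 1 rose and 3 fell. RGS3 had 3170.1, 3588 and 3072 in FOXC2 cultures, against 5191, 5215 and 4697 in pBabe cultures (log2 fold change -0.62 ± 0.10 SE, limma adjusted p 0.00561). RGS10 fell by 0.60, while RGS19 rose by 0.45. RGS19 was not called without FOXC2 replicate 2 (limma adjusted p 0.0596), FOXC2 replicate 3 (0.0894), pBabe replicate 1 (0.0839) or pBabe replicate 2 (0.0828). In the cAMP pathway 3 of 21 genes rose and 2 fell. RAPGEF3, an exchange factor that cAMP activates, had 494, 788 and 513 in FOXC2 cultures, against 1439.8, 1205 and 1299 in pBabe cultures, 44.6% of the pBabe level (limma adjusted p 0.00599). The median log2 fold changes of the alpha, beta and gamma, kinase and arrestin, RGS and cAMP lists were 0.26, 0.33, 0.36, 0.22 and 0.02, against 0.03 over all named genes. In the same order, median mean log2 intensities were 10.03, 10.45, 8.75, 9.86 and 9.62, against 10.0 over all named genes. These medians include dim genes that did not pass, among them SAG, GNAT1 and GRK3. A comparison with named genes of like signal was not made.

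Known partners of adhesion receptors were the genes of ligands and scaffolds, of which 15 were measured, 1 rose and 4 fell. CD55, the ligand of ADGRE5, had 1116, 1509 and 1690.0 in FOXC2 cultures, against 3513, 2675 and 3999 in pBabe cultures, 42.3% of the pBabe level (limma adjusted p 0.00608). The receptor and its ligand gene were both lower. TGM2, a transglutaminase that ADGRG1 binds, had 14776, 17092 and 15903 in FOXC2 cultures, against 37038, 36448 and 33917 in pBabe cultures, 44.4% of the pBabe level (limma adjusted p 3.51e-04). ADGRG1 was higher where TGM2 was lower, and the other ADGRG1 ligand gene, COL3A1, stayed dim in both groups (89 to 152 on all arrays) and did not pass. The synaptic scaffolds DLG1 and DLG4 were lower at -0.84 and -0.65, and C1QL2, a secreted ligand family member of ADGRB3, was higher at 1.46. The values of DLG4, C1QL2, COL3A1 and GNAS were known when these genes were picked for naming. The CELSR cadherins are adhesion receptors under other symbols. CELSR1 rose by 0.54, CELSR2 fell by 0.51 and CELSR3 did not pass (-0.20).

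**Figure D4:**
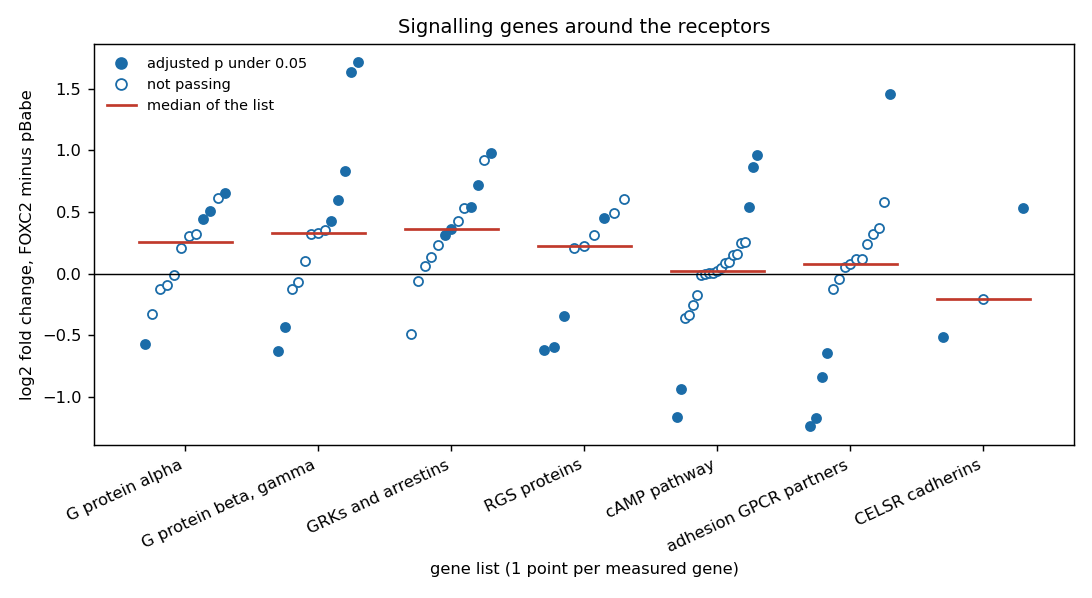
Log2 fold change of FOXC2 minus pBabe (y) for each measured gene of 7 signalling lists (x), filled where passed, with a red line at the list median. GNG4 is at 1.72, and CD55 and TGM2 are at -1.24 and -1.17.

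Several of the receptors are better known from other cell types, and markers of those types were read in the same arrays. Their counts stand against 14.1% of named genes passing as higher and 14.3% as lower. Of 10 leukocyte markers 2 were measured, CD68, which did not pass, and CD3D, which fell. CD3D had 87.5, 94.7 and 72.4 in FOXC2 cultures, against 712, 675 and 813 in pBabe cultures, 11.5% of the pBabe level (limma adjusted p 4.17e-05). The summed intensity of CD68 and CD3D was 1589 to 2078 in FOXC2 cultures and 1861 to 2157 in pBabe cultures. CD68 makes up most of it, so the sums show little of the fall of CD3D. Of 10 neuronal and glial markers 4 were measured and 3 rose, with sums of 26096 to 27142 in FOXC2 cultures and 18497 to 21737 in pBabe cultures. SYP and SYN1 each rose 4.1-fold and MBP rose 1.86-fold. TUBB3, which makes up most of these sums, did not pass. Both measured endothelial markers of 7, EGFL7 and CLDN5, rose, with sums of 1985 to 2094 in FOXC2 cultures and 1090 to 1153 in pBabe cultures. EGFL7 makes up most of these sums, and CLDN5 was dim, with means of 157 in FOXC2 cultures and 79.4 in pBabe cultures. Of 9 fibroblast markers 4 were measured and 3 fell, with sums of 821 to 1009 in FOXC2 cultures and 3290 to 4095 in pBabe cultures. COL1A1, which fell with PDGFRB and DCN, makes up most of these sums, and COL3A1 did not pass. Of the 7 colon epithelial markers 4 rose and 1 fell, with a median log2 fold change of 1.06. VIL1, which encodes villin of the brush border, had 5360.1, 4483 and 4932 in FOXC2 cultures, against 506, 601 and 608 in pBabe cultures, an 8.62-fold rise (limma adjusted p 3.55e-05). EPCAM, an epithelial adhesion molecule, had 3840.4, 3561 and 3454 in FOXC2 cultures, against 707, 689 and 738 in pBabe cultures, a 5.08-fold rise (limma adjusted p 3.55e-05). The intestinal transcription factor CDX2 rose 2.28-fold and the keratin KRT19 2.09-fold, while the keratin KRT18 fell to 81.4% of its pBabe level. The summed intensities were 72953 to 77315 in FOXC2 cultures and 67557 to 72700 in pBabe cultures, and KRT8 and KRT18 make up most of them, so the sums show little of these changes. No marker could be listed at 0, since the lowest value of the table is 50. All arrays came from cultures of the SW480 line, so the markers were read as genes of that line and not as counts of other cells. Whether their changes relate to those of the receptors was not tested.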

How the data were processed

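RNA of each culture was read on a NimbleGen array in 1 colour (Cy3), per the labels' protocols. The authors deposited linear intensities, and the submitters' processing notes name RMA. Its version, its settings and a genome build were not given in the sources used here. RMA usually makes array distributions alike, which would hide a shift of all transcripts. The chip is described as holding 45033 genes. Here 33497 features were analysed, none below 50 on any array, so genes silent in 1 group may be missing. Detection calls, slides and scans were not used here, and array number limits the precision.

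Features were named by the platform annotation (13730 with 1 symbol). Log2 intensities, with no offset or filter, were compared in limma 3.58.1 (R 4.3.3, lmFit and eBayes), FOXC2 minus pBabe, with Benjamini-Hochberg adjustment over all 33497 features and a threshold of 0.05. The fit was tested on simulated data. Named were all passing receptors, the 10 with the highest mean signal, and a fixed list of receptors with a known ligand or a role in colon epithelium. Also named were up to 3 passing genes per signalling list whose brighter group exceeded the median of all values. GPR26, GPR119, GPR176, GPR63, ADGRE1 and the other receptors named beside them were added after their values were seen. The receptors and lists were chosen with earlier results of these data known. Promoters and gene order came from RefSeq tables (GRCh38.p14), and of 2703 overlapping windows on opposite strands 2703 were reverse complements. Alternatives were each array left out in turn, quantile normalization, median centring, a replicate block, no dim features, an offset of 16, a trended robust prior and the mean over features of a gene.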

Additional observations from a re-analysis of the deposited data

How the results depend on the processing

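With quantile normalization, median centring, a trended robust prior, an offset of 16 before the log or means over a gene's features, 11 or 12 receptors were higher and 5 or 6 lower. Median log2 fold changes over all features shifted by -0.006 with quantile normalization and 0.0134 with median centring. Shifts of single receptors could be larger. With quantile normalization the dim GPR61, GPR78 and GPR119 went from 0.81, 0.62 and 0.51 to 0.73, 0.54 and 0.43 on the log2 scale. The brighter ADGRG1 went from 0.90 to 0.91. With dim features left out, 3 receptors were higher and 3 lower, because only 16 of the 49 were then tested. With each array left out, 8 to 12 receptors were higher, 5 or 6 were lower, and 5752 to 6768 features passed, against 8819 on all arrays. The lowest of these counts was without FOXC2 replicate 3. The log2 fold change of GPR161, -0.06 on all arrays, ran from -0.167 without FOXC2 replicate 3 to 0.075 without FOXC2 replicate 1, never passing, and the cause was not tested. For 47 named genes, settings other than leaving out an array gave 310 values. Direction and call stayed the same in 295 of them, while 11 lost and 4 gained the call. Leaving out an array gave 282 values, with 234 the same, 41 calls lost, 6 gained and 1 sign turned. By limma adjusted p, GPR78 lost its call with quantile normalization (0.0572) and with a trended robust prior (0.0945), and GNB3 with quantile normalization (0.0553) and median centring (0.0534). GPR26 gained it with a trended robust prior (0.0189), and ADGRG6 with quantile normalization (0.0367) and the offset (0.0494). Deviations of same-numbered cultures from their group means had correlations of -0.102, -0.119 and -0.062. Differently numbered cultures were not compared, so these values cannot decide whether the numbers pair the cultures. With the replicate block 9 receptors were higher, 6 lower and 5960 features passed. The receptors GPR3, GPR157 and GPR78 then lost the call (limma adjusted p 0.0553, 0.0824 and 0.102), and ADGRG6 gained it (0.0209). Of the signalling genes, GNAQ, GNG12, GRK2 and GRK6 lost it with the block (0.0559, 0.0652, 0.062 and 0.0739). Fold changes of dim receptors are limited by signal, and without detection calls their sizes are uncertain.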
